A study of Mus musculus with 7 samples.

Results

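The 56 genes described here encode lysosomal proteins and the proton pump that acidifies the lysosome. Of the 23347 genes in the liver count table, 20 had a symbol beginning with Atp6v0 or Atp6v1, the subunits of the vacuolar proton pump, and 36 were lysosomal genes chosen by name: soluble hydrolases and their helper proteins, membrane proteins of the lysosome, progranulin and the transcription factor *Tfeb*. Liver RNA was sequenced from 7 male C57BL/6 mice, 1 library per mouse, after 15 weeks on CDAHFD, a fatty diet with defined amino acids and without choline that brings on steatohepatitis. Feeding began at 6 to 8 weeks of age. The 4 mice labelled WT were *B4galt1* flox/flox littermates, which carry the floxed allele without the recombinase. In the 3 mice labelled B4-HKO, *Alb-Cre*, driven by the albumin promoter, was to delete *B4galt1* in hepatocytes, while other liver cells keep the gene. *B4galt1* encodes a galactosyltransferase of the Golgi that extends N-glycans. The study compared both genotypes to learn what hepatocyte loss of the enzyme does on the diet, and the lysosomal transcripts of that comparison are given here. Chow-fed mice were not analysed here.

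Lysosomes degrade proteins, glycans and lipids delivered by endocytosis, phagocytosis and autophagy. Most of their enzymes work best at acid pH, which the vacuolar proton pump maintains by coupling ATP hydrolysis in its V1 sector to proton movement through its membrane-embedded V0 sector. Most soluble hydrolases are N-glycoproteins that receive a mannose 6-phosphate tag and are sorted to the lysosome by receptors for that tag, and many of the genes are under the control of TFEB and its relatives. Hepatocytes, Kupffer cells and recruited macrophages all carry lysosomes, and macrophages are particularly rich in them.

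The targeted gene was examined first. *B4galt1* had 48.7, 53.0, 49.2 and 51.6 CPM (counts scaled to library size, with TMM factors from edgeR) in WT replicates 1 to 4, and 28.4, 23.9 and 53.7 CPM in B4-HKO replicates 1 to 3. Replicates 1 and 2 of the B4-HKO group were below every WT liver, and replicate 3 was above them, so the group is called "livers labelled B4-HKO" throughout. The log2 fold change was −0.52 (SE 0.26), with a p of 0.181 in the quasi-likelihood test of edgeR after Benjamini-Hochberg adjustment, and −0.96, then past the threshold, without B4-HKO replicate 3. Libraries held 37838654 to 39668509 counts in the WT group and 30608271 to 34586588 in the B4-HKO group, and 3 counts amounted to 0.0690 to 0.0987 CPM. The 13 mitochondrially encoded genes took 5.79% ± 1.70 of the counts in WT livers (SD, n = 4) and 19.7% ± 4.58 in livers labelled B4-HKO (SD, n = 3). That the replicates are separate mice rests on the labels, which give no batch, and the p-values measure the spread between these 7 livers.

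Of the 56 genes, 53 had enough counts to be tested among 15179 genes. Calls required both an adjusted p below 0.05 and an absolute log2 fold change above 0.58, which is about 1.5-fold. By this rule 21 of the 53 genes (39.6%) were lower in livers labelled B4-HKO, where 7.83% of all tested genes were called lower. No lysosomal or pump gene was called higher by edgeR or by DESeq2, where 8.0% of all tested genes were by edgeR. At an unadjusted p below 0.05, 34 of the 53 genes (64.2%) were lower, against 16.1% of all tested genes, and 4 (7.55%) were higher, against 16.8%. The 4 were *Tfeb*, *Atp6v0b*, *Atp6v1g1* and *Atp6v1g2*, named after their values were seen. In 29 genes every liver labelled B4-HKO lay below every WT liver, a pattern found for 15.0% of all tested genes, and in 2 genes, *Tfeb* and *Atp6v0b*, every liver labelled B4-HKO lay above, as for 13.6% of all tested genes. The median log2 fold change was −0.63 over the 53 genes and 0.02 over all tested genes. A negative value was found for 44 of the 53 genes and for 48.7% of all tested genes. The lower calls were 19 of the 36 named lysosomal genes, median −0.72, and 2 of the 17 tested pump subunits, median −0.60. With 1 mouse left out, calls became fewer among all tested genes as well. Without B4-HKO replicate 3 there were 21 lower calls among the 53 genes (39.6%, against 7.51% of all tested genes), and without WT replicate 3 there were 14 (26.4%, against 4.71%). Without B4-HKO replicate 2 there were 12 (22.6%, against 3.84%), and without WT replicate 2 there were 11 (20.8%, against 3.16%). DESeq2, fitted without a filter on low counts, called 28 of all 56 genes lower (50.0%), against 6.82% of 22960 genes. In whole liver, fewer cells of a type and less RNA per cell cannot be told apart.

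**Figure D1:**
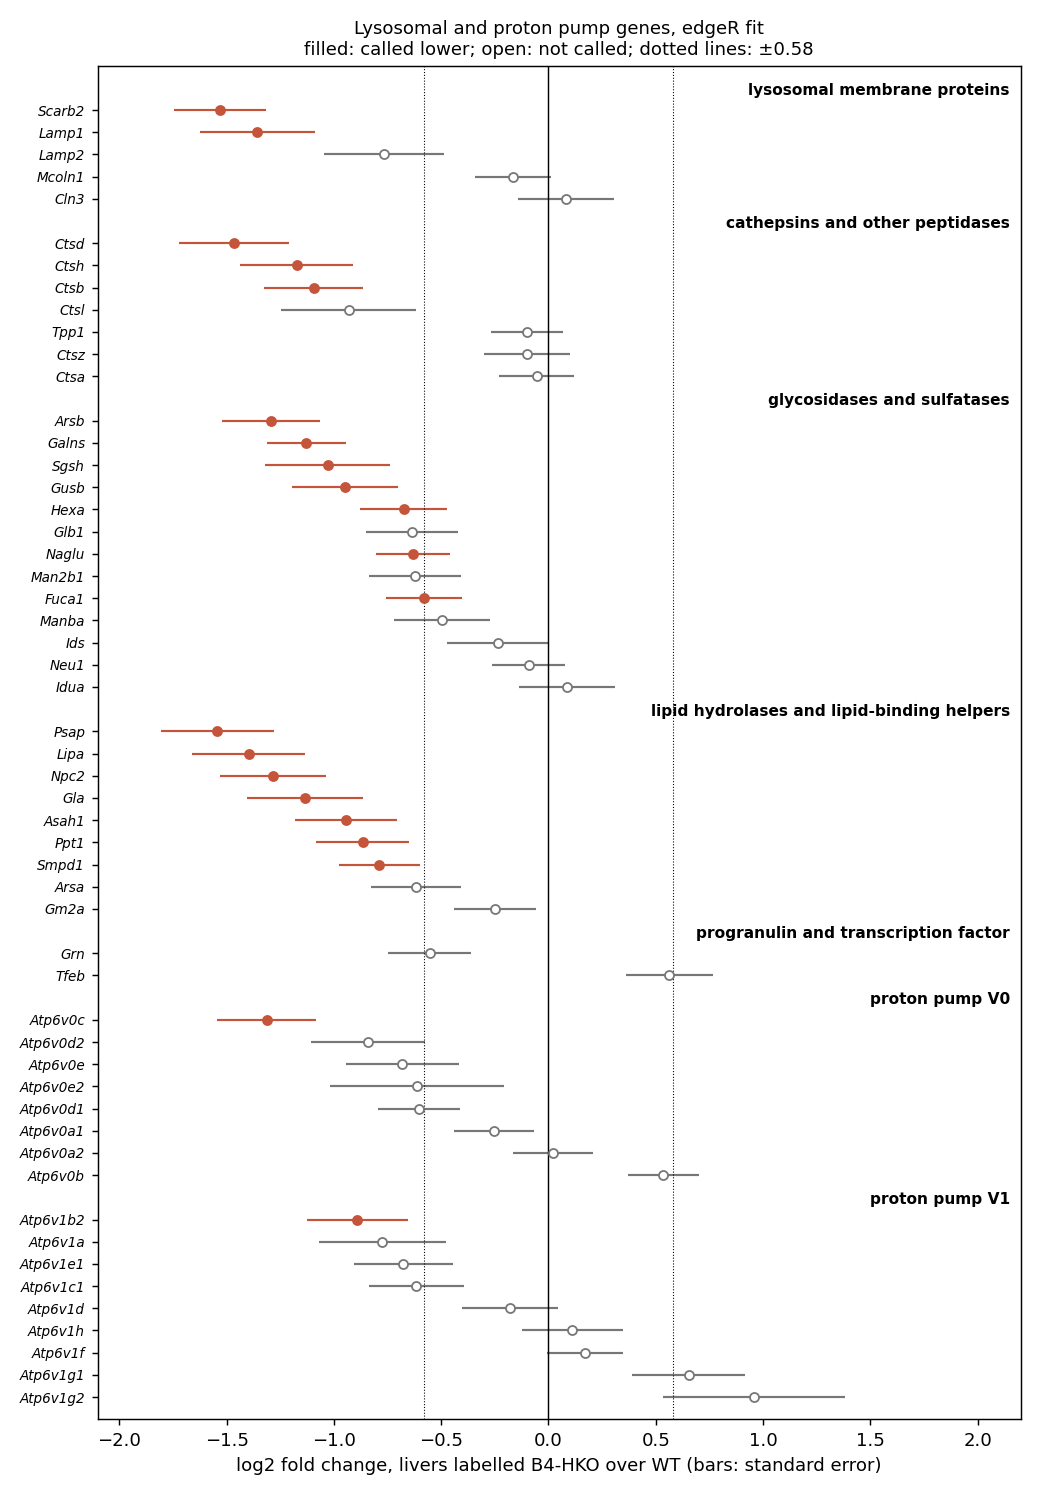
Log2 fold change (x axis, livers labelled B4-HKO over WT) of each of the 53 tested genes, grouped by role (y axis). Points are edgeR estimates, bars are standard errors, filled points were called lower, and dotted lines mark the fold change threshold. The filled points run from −1.54 for *Psap* to −0.58 for *Fuca1*, and most pump subunits are open.

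Promoters were examined because TFEB binds E-boxes with the core CACGTG, in particular in the extended form TCACGTGA, which contains that core. Both strings read the same on either strand. Of the 56 genes, 46 matched a RefSeq promoter (GRCm38.p6), and the 250 bases before the start were searched. CACGTG was present in 13 of the 46 genes (28.3%), against 9.43% of 12013 tested genes with a promoter and 6.86% of all 27025 genes in the promoter table. TCACGTGA was present in 6 of the 46 (13.0%), against 1.63% of tested genes. The share with CACGTG was 5 of 16 (31.2%) among genes called lower and 8 of 27 (29.6%) among tested genes that were not called. It was 11 of 32 among named lysosomal genes (34.4%) and 2 of 14 among pump subunits (14.3%). A match describes the letters only, and no binding was measured here.

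The sequences below show that genes with and without a lower call carry the same letters. *Lamp1* is shown for its 4 copies of CACGTG, a number reached by 3 of the 12013 tested genes. *Ctsd* and *Gla* were called lower and carry TCACGTGA, *Ctsa*, *Mcoln1* and *Atp6v1a* carry it and were not called, and *Atp6v0b*, with 1 copy of the core in the stretch shown, had its B4-HKO values above the WT values. Capitals mark the motif. Each is written 5′ to 3′ on the strand of its gene.
Lamp1, chr8:13159078-13159160, plus strand: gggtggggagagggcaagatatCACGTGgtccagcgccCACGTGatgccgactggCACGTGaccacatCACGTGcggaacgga
Ctsd, chr7:142387908-142387937, minus strand: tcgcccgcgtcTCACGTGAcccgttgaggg
Gla, chrX:134601182-134601211, minus strand: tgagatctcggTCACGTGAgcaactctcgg
Ctsa, chr2:164833749-164833772, plus strand: tgagcaaactgTCACGTGAtgcag
Mcoln1, chr8:3500462-3500491, plus strand: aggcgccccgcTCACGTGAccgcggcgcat
Atp6v1a, chr16:44139363-44139412, minus strand: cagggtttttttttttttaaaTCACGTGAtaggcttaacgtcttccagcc
Atp6v0b, chr4:117887330-117887359, minus strand: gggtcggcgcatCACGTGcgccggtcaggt
The *Lamp1* and *Atp6v1a* stretches lay outside annotated exons. The others were kept to 30 bases or fewer because the region around their motifs overlapped an annotated exon, for *Gla* one of the neighbouring gene *Hnrnph2*.

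Among the lysosomal membrane proteins, 2 of 5 were lower, and their summed level was 1330 to 1777 CPM in WT livers and 494 to 970 CPM in livers labelled B4-HKO. *Lamp1*, one of the most abundant glycoproteins of the lysosomal membrane, had 712, 795, 876 and 764 CPM in WT livers and 296, 197 and 429 CPM in livers labelled B4-HKO. The groups did not overlap, and the highest B4-HKO value was that of replicate 3. Its log2 fold change was −1.36 (SE 0.27, adjusted p = 0.00938), or 2.56-fold lower. *Scarb2*, also known as LIMP-2, carries glucocerebrosidase to the lysosome, and had 139, 153, 182 and 133 CPM in WT livers against 48.3, 44.2 and 64.9 CPM. The log2 fold change of *Scarb2* was −1.53 (SE 0.21, adjusted p = 0.00297), or 2.89-fold lower, with the smallest adjusted p of the 53 genes. *Lamp2*, which also serves chaperone-mediated autophagy, had 424, 590, 674 and 614 CPM in WT livers and 386, 203 and 426 CPM in the others. Its groups met, since B4-HKO replicate 3 was just above WT replicate 1, and its log2 fold change of −0.77 (SE 0.28, adjusted p = 0.0811) was not called. *Mcoln1*, the calcium channel TRPML1, had 27.3 ± 1.97 CPM in WT livers (SD, n = 4) and 24.3 ± 3.92 CPM in livers labelled B4-HKO (SD, n = 3), with overlapping groups. *Cln3*, the protein altered in juvenile Batten disease, overlapped likewise, with 17.5 to 25.0 and 15.4 to 26.8 CPM. Neither *Mcoln1* nor *Cln3* was called.

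The cathepsins and other peptidases had a summed level of 4584 to 5621 CPM in WT livers and 2067 to 3178 CPM in livers labelled B4-HKO, without overlap. Called lower were 3 of the 7 (42.9%, against 7.83% of all tested genes), the aspartic protease *Ctsd* and the cysteine proteases *Ctsb* and *Ctsh*. *Ctsd* had 1155, 1128, 1728 and 905 CPM in WT livers and 432, 410 and 492 CPM in livers labelled B4-HKO. Per length it had the highest level of the 56 genes, a mean of 479 FPKM (reads scaled to gene length and library size) over the 7 livers. It was 2.76-fold lower, with a log2 fold change of −1.47 (SE 0.26, adjusted p = 0.00626). *Ctsb* had 1365, 1437, 1837 and 1253 CPM in WT livers against 684, 587 and 801 CPM, and *Ctsh* had 212, 260, 304 and 235 CPM against 102, 76.0 and 158 CPM. Neither overlapped between groups. The log2 fold change was −1.09 for *Ctsb* (SE 0.23, adjusted p = 0.0120) and −1.17 for *Ctsh* (SE 0.26, adjusted p = 0.0149). In the annotation, exons of *Ctsb* overlap exons of *Fdft1* on the opposite strand.

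*Ctsl*, a cysteine protease and second in level per length in this role with 274 FPKM, had 1109, 1215, 1107 and 1481 CPM in WT livers and 518, 391 and 1022 CPM in livers labelled B4-HKO. B4-HKO replicate 3 stood near the WT livers, and *Ctsl* was not called (log2 fold change −0.93, SE 0.31, adjusted p = 0.0643). It was called in 5 of 10 alternative settings that kept all mice and the fold change threshold and in 1 of the 7 fits that left out 1 mouse, and its log2 fold change ranged from −1.44 to −0.67 over these fits. The other 3 peptidases had fold changes between −0.10 and −0.05 on the log2 scale and overlapping groups. *Ctsz*, a carboxypeptidase, had 307 to 397 CPM in WT livers and 277 to 380 CPM in the others. *Ctsa*, or protective protein, which stabilizes beta-galactosidase and neuraminidase, had 234 to 263 CPM in WT livers and 232 to 235 CPM in livers labelled B4-HKO. *Tpp1*, a tripeptidase whose loss causes a form of Batten disease, had 89.2 to 103 and 89.2 to 95.3 CPM.

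**Figure D2:**
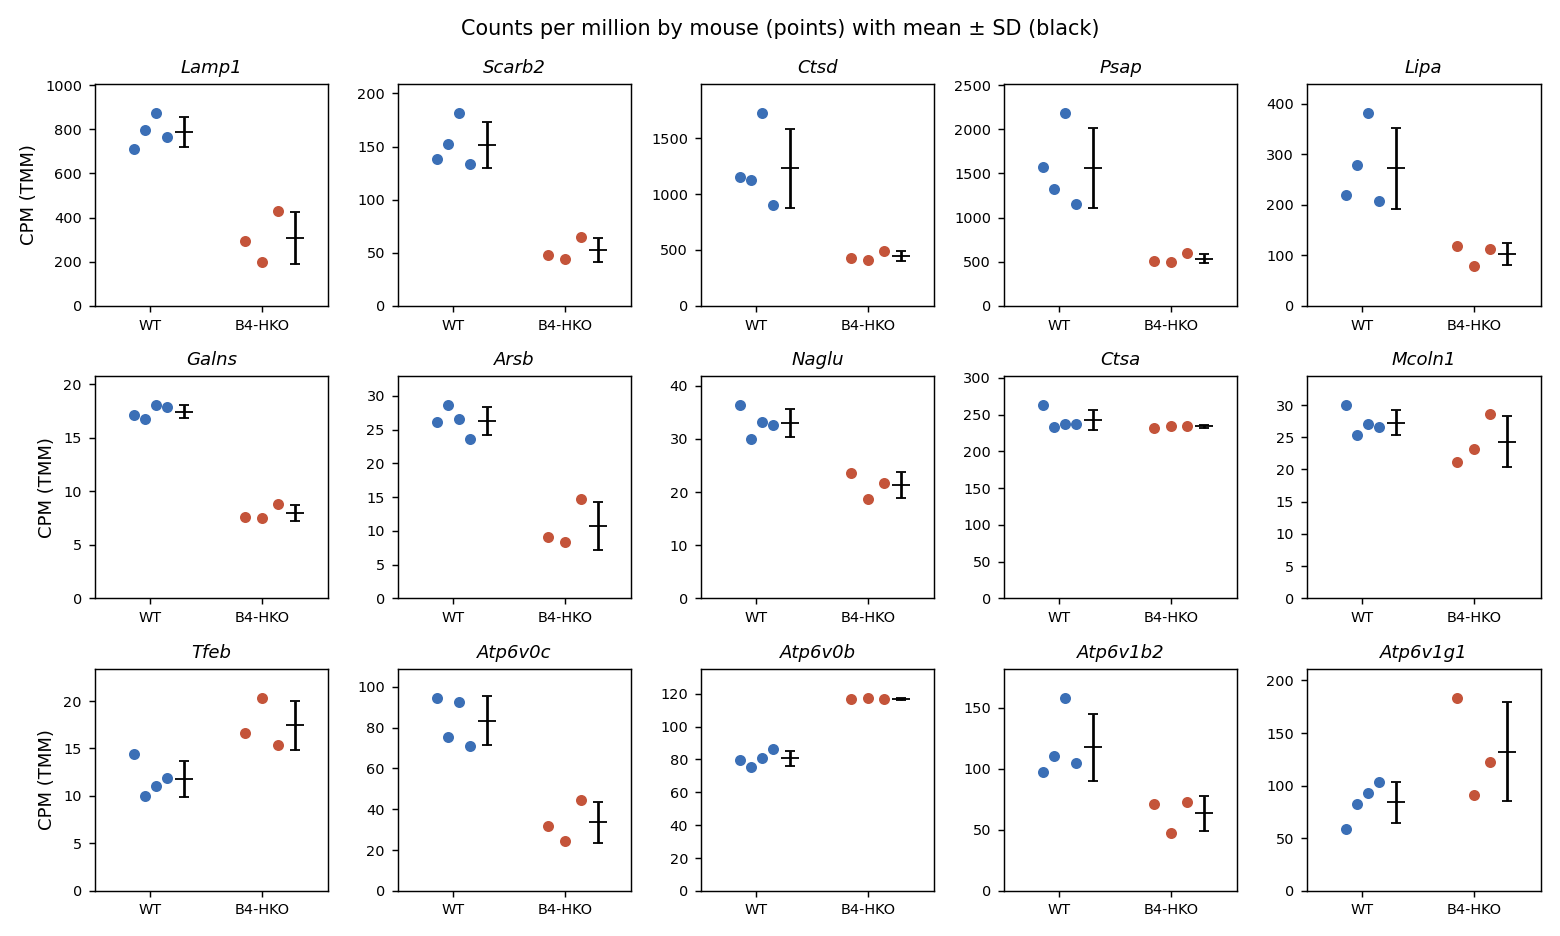
Level of 15 of the genes in each liver (y axes, TMM-scaled CPM from 0) in the WT (blue, n = 4) and B4-HKO (red, n = 3) groups, with mean and SD in black. The first row, *Galns*, *Arsb*, *Naglu*, *Atp6v0c* and *Atp6v1b2* show groups that do not overlap with B4-HKO lower, *Ctsa* and *Mcoln1* overlap, and *Tfeb* and *Atp6v0b* lie higher in every liver labelled B4-HKO.

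Glycosidases and sulfatases take sugars and sulfate groups off glycoproteins, glycolipids and glycosaminoglycans. Of 13 genes, 7 were called lower (53.8%, against 7.83% of all tested genes) and 12 had a negative log2 fold change. In 10 (76.9%, against 15.0%) the groups did not overlap, with B4-HKO lower. Both sulfatases that act on the N-acetylgalactosamine sulfates of glycosaminoglycans were lower: *Arsb* had 26.1, 28.6, 26.6 and 23.6 CPM in WT livers against 9.03, 8.35 and 14.8 CPM, and *Galns* had 17.1, 16.8, 18.0 and 17.8 CPM against 7.60, 7.51 and 8.82 CPM. Within each group *Galns* varied little, with 17.4 ± 0.603 CPM (SD, n = 4) and 7.97 ± 0.730 CPM (SD, n = 3). The log2 fold change was −1.29 for *Arsb* (SE 0.23, adjusted p = 0.00653) and −1.13 for *Galns* (SE 0.19, adjusted p = 0.00510). *Sgsh* and *Naglu*, which act in heparan sulfate breakdown, were also called. *Sgsh* had 13.9, 8.71, 8.74 and 6.53 CPM against 5.16, 5.04 and 3.72 CPM (log2 fold change −1.03, SE 0.29, adjusted p = 0.0354), and *Naglu* had 36.4, 30.1, 33.1 and 32.6 CPM against 23.5, 18.7 and 21.8 CPM (−0.63, SE 0.17, adjusted p = 0.0311).

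*Gusb*, beta-glucuronidase, had 57.3, 57.9, 89.9 and 46.2 CPM in WT livers and 27.1, 31.2 and 39.4 CPM in livers labelled B4-HKO, a log2 fold change of −0.95 (SE 0.25, adjusted p = 0.0259). WT replicate 3 was the highest, and the groups did not overlap, but the call was lost in 4 of 7 fits that each left out 1 mouse. *Hexa*, the alpha subunit of beta-hexosaminidase and the most abundant of this role per length (48.8 FPKM), had 105, 101, 139 and 100 CPM against 77.0, 56.9 and 75.5 CPM (log2 fold change −0.67, SE 0.20, adjusted p = 0.0443). *Fuca1*, alpha-fucosidase, had 79.0, 83.5, 84.5 and 86.4 CPM against 51.0, 50.0 and 66.2 CPM, and was just past the fold change threshold (log2 fold change −0.58, SE 0.18, adjusted p = 0.0472). The calls of *Hexa*, *Fuca1*, *Naglu* and *Sgsh* were lost more often: *Hexa* in all 7 of these fits, and *Fuca1*, *Naglu* and *Sgsh* in 6 each. *Man2b1*, lysosomal alpha-mannosidase, had 184, 140, 211 and 139 CPM against 94.2, 123 and 112 CPM, apart between groups but not called (log2 fold change −0.62, SE 0.21, adjusted p = 0.0691). *Manba*, beta-mannosidase, with 19.0 to 26.5 against 10.9 to 18.8 CPM, and *Glb1*, lysosomal beta-galactosidase, with 9.55 to 13.1 against 6.56 to 7.80 CPM, also had separate groups without a call. *Neu1* (neuraminidase), *Idua* (alpha-iduronidase) and *Ids* (iduronate sulfatase) overlapped, with group means of 46.5 and 43.6 CPM for *Neu1*.

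The lipid hydrolases and their helpers had the highest share of calls of any role, 7 of 9 (77.8%, against 7.83% of all tested genes), with a median log2 fold change of −0.94. *Psap* encodes prosaposin, the precursor of the saposins that present sphingolipids to their hydrolases, and had 1571, 1322, 2188 and 1152 CPM in WT livers and 511, 499 and 594 CPM in livers labelled B4-HKO. The values of the B4-HKO group lay close together and far below the lowest WT liver. *Psap* was 2.91-fold lower, with a log2 fold change of −1.54 (SE 0.26, adjusted p = 0.00581), and had 417 FPKM on average. *Lipa*, the acid lipase that splits cholesteryl esters and triglycerides in the lysosome, had 219, 279, 382 and 207 CPM against 119, 78.6 and 112 CPM. It was 2.63-fold lower (log2 fold change −1.40, SE 0.26, adjusted p = 0.00816). *Npc2*, which hands the freed cholesterol on to *Npc1*, had 137, 136, 220 and 137 CPM against 72.5, 48.3 and 73.3 CPM, and its log2 fold change was −1.28 (SE 0.25, adjusted p = 0.00895).

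Of the sphingolipid enzymes, *Asah1* (acid ceramidase) had 55.9, 78.3, 103 and 61.9 CPM in WT livers and 40.7, 32.1 and 44.1 CPM in livers labelled B4-HKO. *Smpd1* (acid sphingomyelinase) had 33.2, 33.5, 28.3 and 28.5 CPM against 17.6, 14.7 and 21.3 CPM. *Gla* (alpha-galactosidase A) had 13.1, 15.4, 24.8 and 11.6 CPM against 7.40, 7.27 and 7.53 CPM. In all 3 the groups stood apart, and the B4-HKO values of *Gla* were almost equal. Their log2 fold changes were −0.94 (SE 0.24, adjusted p = 0.0241), −0.79 (SE 0.19, adjusted p = 0.0193) and −1.13 (SE 0.27, adjusted p = 0.0193), respectively. *Ppt1*, which removes fatty acyl groups from proteins, had 34.1, 35.4, 46.0 and 32.7 CPM against 20.2, 15.4 and 25.4 CPM (log2 fold change −0.87, SE 0.22, adjusted p = 0.0227). With 1 mouse left out, the calls of *Asah1* and *Ppt1* were lost in 3 of 7 fits each, that of *Smpd1* in 2 and that of *Gla* in 1. The other two of this role were not called: *Arsa*, arylsulfatase A, had 57.2 to 98.0 CPM against 46.1 to 57.8 CPM, and *Gm2a*, the GM2 activator, had 102 to 118 CPM against 74.6 to 110 CPM.

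Progranulin and *Tfeb* had fold changes of opposite sign, and neither was called. *Grn*, the precursor of granulins and a partner of prosaposin in its transport to the lysosome, had 467, 378, 378 and 405 CPM in WT livers and 251, 269 and 312 CPM in livers labelled B4-HKO (log2 fold change −0.55, SE 0.19, adjusted p = 0.0725). *Tfeb* had 14.4, 9.96, 11.0 and 11.9 CPM against 16.6, 20.4 and 15.4 CPM, so that every B4-HKO value was above every WT value (log2 fold change 0.56, SE 0.20, adjusted p = 0.0782). TFEB is regulated largely by its phosphorylation and its place in the cell, which RNA does not show.

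Over the whole pump, 2 of 17 tested subunits (11.8%) were called lower, against 7.83% of all tested genes. At an unadjusted p below 0.05 by edgeR, 8 of the 17 (47.1%) were lower, against 16.1% of all tested genes. At that p 3 (17.6%) were higher, against 16.8%. In 5 (29.4%, against 15.0%) every B4-HKO value lay below every WT value, and in 1 above. In the V0 sector, 1 of 8 (12.5%) was called lower. *Atp6v0c*, the subunit that forms most of the proton-carrying ring, had 94.7, 75.2, 92.7 and 70.9 CPM in WT livers and 31.8, 24.4 and 44.4 CPM in livers labelled B4-HKO. It was 2.49-fold lower (log2 fold change −1.31, SE 0.23, adjusted p = 0.00654), and the groups stood well apart. The annotation also holds 2 pseudogenes named after *Atp6v0c*, whose reads the counting may not separate. *Atp6v0b*, another ring subunit, went the other way, with 79.9, 75.5, 80.8 and 86.6 CPM in WT livers and 117, 118 and 117 CPM in livers labelled B4-HKO. Its adjusted p was 0.0471, but its log2 fold change of 0.54 (SE 0.16) was under the threshold, so it was not called higher. Its exons overlap those of *Gm12841* in the annotation. Both ring subunits had groups that did not overlap, with the B4-HKO values below the WT values for *Atp6v0c* and above them for *Atp6v0b*.

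*Atp6v0e*, a small membrane subunit and the most abundant of V0 per length (65.3 FPKM), had 46.7, 61.3, 72.9 and 66.6 CPM in WT livers and 31.4, 27.6 and 56.9 CPM in livers labelled B4-HKO (log2 fold change −0.68, SE 0.26, adjusted p = 0.0985). B4-HKO replicate 3 again lay among the WT values. *Atp6v0d1*, which joins the ring to the central stalk, had 78.2 to 93.8 CPM against 43.5 to 61.1 CPM, without overlap. Its relative *Atp6v0d2*, known from osteoclasts and macrophages, had 54.1 to 114 CPM against 36.7 to 56.2 CPM, with overlap. Both missed the threshold narrowly, with log2 fold changes of −0.60 for *Atp6v0d1* (SE 0.19, adjusted p = 0.0507) and −0.84 for *Atp6v0d2* (SE 0.26, adjusted p = 0.0504), and each was called in 6 of the 10 alternative settings that kept all mice and the fold change threshold. The a subunits, which hold the proton half-channels, overlapped: *Atp6v0a1* had 54.1 to 70.2 CPM against 43.3 to 60.4 CPM and *Atp6v0a2* had 28.2 to 41.3 CPM against 30.5 to 38.7 CPM. *Atp6v0e2* was low throughout, at 0.987 to 3.90 CPM over all 7 livers. *Atp6v0a4*, the kidney form of the a subunit, had 2 counts in WT replicate 1 and none in the other livers.

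In the V1 sector, 1 of 9 tested subunits (11.1%) was called lower, against 7.83% of all tested genes. In 3 (33.3%, against 15.0%) every B4-HKO value lay below every WT value, and in 0 above. *Atp6v1b2*, the B subunit of the ATP-hydrolysing head found in most cells, had 97.7, 110, 158 and 105 CPM in WT livers and 71.0, 47.1 and 72.8 CPM in livers labelled B4-HKO (log2 fold change −0.89, SE 0.24, adjusted p = 0.0283). The call was lost in 3 of the 7 fits that left out 1 mouse. *Atp6v1a*, the catalytic A subunit beside it in the head, had 55.7, 73.9, 137 and 74.8 CPM against 61.9, 38.5 and 49.2 CPM, with overlapping groups and no call. *Atp6v1e1*, a stalk subunit and the most abundant of V1 per length (111 FPKM), had 135, 170, 158 and 181 CPM against 95.2, 72.7 and 135 CPM. Its highest B4-HKO value was just under its lowest WT value, and it was not called (log2 fold change −0.68, SE 0.23, adjusted p = 0.0681). *Atp6v1c1*, the subunit that links stalk and membrane sector, had 45.9 to 73.4 CPM against 27.8 to 42.1 CPM, without overlap and without a call.

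The other V1 subunits had group means that were near each other or higher in livers labelled B4-HKO, all without a call. *Atp6v1f* had 54.4, 56.0, 58.0 and 71.7 CPM in WT livers and 72.1, 61.8 and 68.9 CPM in livers labelled B4-HKO (log2 fold change 0.17, SE 0.18, adjusted p = 0.534). *Atp6v1d* had 33.3 to 52.2 CPM against 29.1 to 49.8 CPM, and *Atp6v1h*, which couples V1 to V0, had 49.3 to 72.6 CPM against 48.3 to 92.7 CPM. *Atp6v1g1*, a stalk subunit, had 58.3, 82.1, 92.6 and 103 CPM against 184, 90.8 and 122 CPM. B4-HKO replicate 1 had the highest value of *Atp6v1g1*, and replicate 2 lay within the WT range. *Atp6v1g2*, the neuronal form, was low, with 1.48 to 2.0 CPM in WT livers and 1.62 to 5.88 CPM in the others. *Atp6v1b1*, the kidney form of the B subunit, had 2 counts in WT replicate 4 and none elsewhere, and *Atp6v1c2* had 4 counts in WT replicate 1 and 4 in B4-HKO replicate 3. With *Atp6v0a4* they are the 3 genes that were not tested.

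Where a subunit has several isoforms in the table, the share of the summed FPKM held by its most abundant isoform was compared between groups. The a subunit was mostly *Tcirg1*, the a3 isoform of lysosomes in macrophages and osteoclasts, which by its symbol lies outside the 56 genes. Its own level was 162, 97.5, 82.6 and 113 CPM in WT livers and 147, 237 and 163 CPM in livers labelled B4-HKO, with overlap and without a call (log2 fold change 0.68, SE 0.26, adjusted p = 0.0928). *Tcirg1* held 69.0%, 60.0%, 53.7% and 66.1% of the summed FPKM in WT livers and 73.6%, 78.2% and 72.4% in livers labelled B4-HKO. Every B4-HKO share was above every WT share, with means of 62.2% ± 6.80 (SD, n = 4) and 74.7% ± 3.04 (SD, n = 3). The two-sided exact permutation test of the difference of 12.5 percentage points gave p = 0.0571, or 0.343 adjusted over the 6 subunits compared, and the smallest p that 4 against 3 mice allow is 0.0286. *Atp6v0d1* held 72.9% ± 4.52 and 75.6% ± 3.72 of the d subunit (exact permutation p = 0.371). For the e, B, C and G subunits a single isoform, *Atp6v0e*, *Atp6v1b2*, *Atp6v1c1* or *Atp6v1g1*, held on average 97.2% or more of the FPKM in both groups, and the exact permutation p was 0.657 or higher.

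Within each group, 1 liver was often the highest. WT replicate 3 was the highest WT liver for 28 of the 53 tested genes (52.8%), where it was the highest for 29.7% of all tested genes, and B4-HKO replicate 3 was the highest of its group for 33 of 53 (62.3%, against 33.1%). Relative to the WT mean, the median of the 36 named lysosomal genes was −0.82, −0.94 and −0.55 on the log2 scale in B4-HKO replicates 1 to 3, and between −0.11 and 0.10 in the WT livers. The median of the pump subunits was −0.47, −0.60 and −0.26 in B4-HKO replicates 1 to 3 and between −0.25 and 0.17 in the WT livers, so that B4-HKO replicate 3 was level with WT replicate 1. B4-HKO replicate 2 was the farthest from the WT livers and replicate 3 the nearest in both sets. Over all genes, replicate 3 also differed least from each WT liver by chi-square per gene. Against WT replicate 4 it was 333, 426 and 176 for B4-HKO replicates 1 to 3. Mitochondrially encoded genes took 22.6%, 22.1% and 14.4% of the counts of these replicates. Replicate 3 is also the liver whose *B4galt1* level was not reduced. Whether these go together was not tested.

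**Figure D3:**
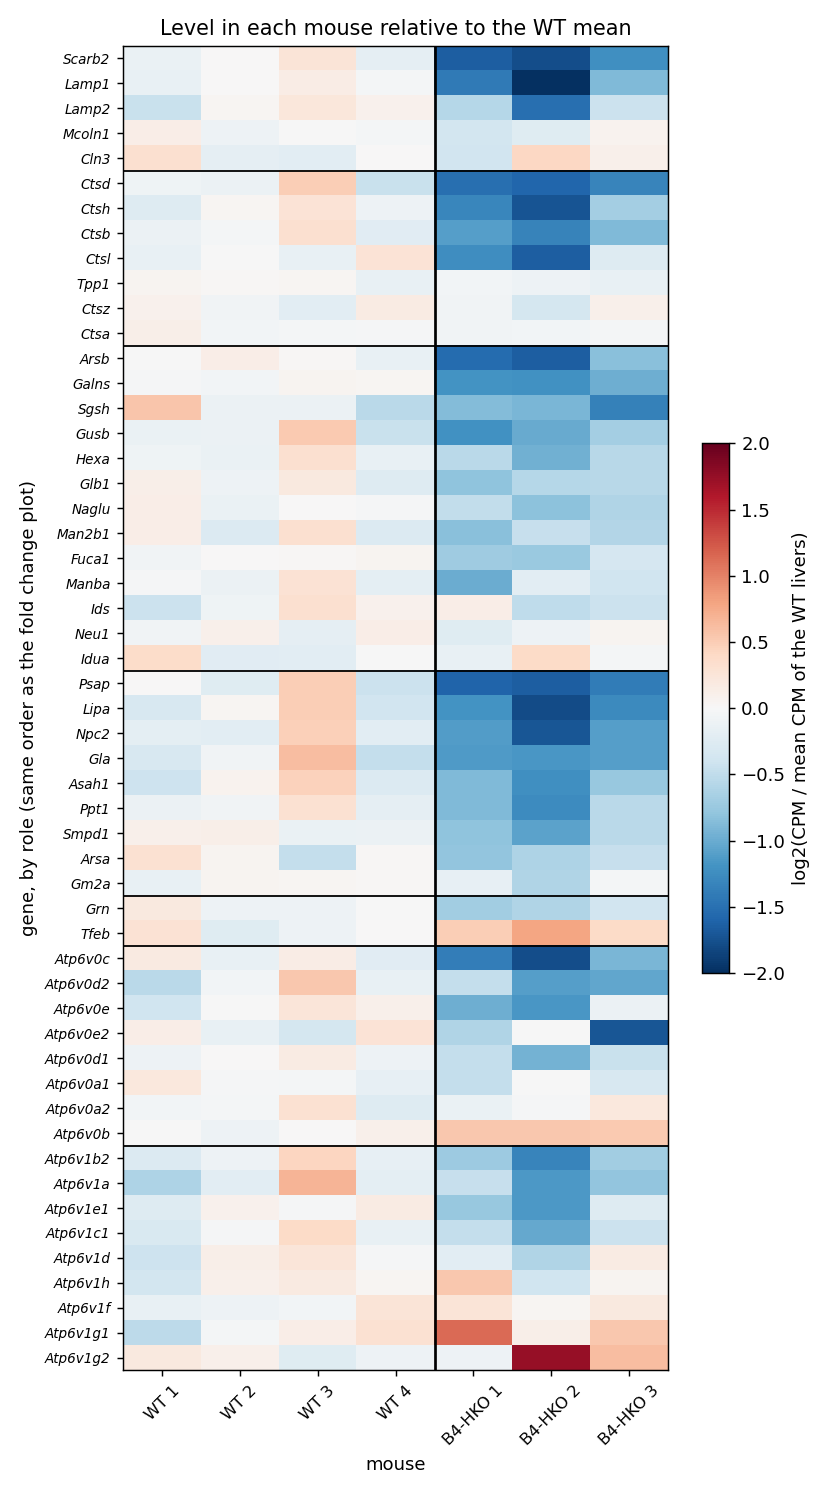
Level of the 53 tested genes (rows, ordered by role as in the fold change plot) in each liver (columns) as log2 of CPM over the mean CPM of the 4 WT livers. Blue is lower and red is higher than the WT mean. Blue dominates in the 3 columns of the B4-HKO group for named lysosomal genes, WT replicate 3 is red in most lipid hydrolase rows, and *Tfeb*, *Atp6v0b* and *Atp6v1g1* are red in the B4-HKO columns.

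Summed over genes, the 36 named lysosomal genes had 9285, 9356, 11678 and 8965 CPM in WT livers and 4749, 4073 and 5963 CPM in livers labelled B4-HKO. The 20 pump subunits had 992, 1132, 1360 and 1157 CPM in WT livers and 1030, 768 and 1014 CPM in the others, so that their sums overlapped. These sums are carried by the genes with the most reads, such as *Ctsb* and *Psap*. Markers of cell types were read beside them. The summed level of 17 macrophage markers was 2639, 2577, 4166 and 1969 CPM in WT livers and 983, 1015 and 1161 CPM in livers labelled B4-HKO, with 10 of the 17 called lower by edgeR and 12 by DESeq2, none higher by either tool or at an unadjusted p below 0.05, and a median log2 fold change of −1.09. WT replicate 3 had the highest macrophage sum and the highest sum of lysosomal genes. That liver also had the highest WT value of each of the 7 endothelial markers. *Pecam1*, for example, had 35.1 CPM there and 8.35 to 11.7 CPM in the other WT livers. *Lyz2*, lysozyme, had a log2 fold change of −2.15 (SE 0.32, adjusted p = 0.00380), *Gpnmb*, a glycoprotein of lipid-laden macrophages, −1.72 (SE 0.31, adjusted p = 0.00691), and *Adgre1*, which encodes F4/80, −1.88 (SE 0.43, adjusted p = 0.0159). *Clec4f*, a defining marker of Kupffer cells, overlapped between groups, with 47.6 to 103 CPM against 40.5 to 63.0 CPM, and *Timd4*, of resident Kupffer cells, was low, with 0.226 to 1.03 CPM against 0.0603 to 0.617 CPM. Elsewhere in the list, *Vsig4* (−1.24, adjusted p = 0.0316) and *Marco* (−1.24, adjusted p = 0.0379) were called lower. *Cd14* (0.16) and *Ccr2* (0.046) had log2 fold changes above 0 and no call. In all, 15 of the 17 had a negative log2 fold change, and 58.8% were called lower, against 7.83% of all tested genes. No macrophage marker was at 0. Of the 10 hepatocyte markers none was called by edgeR (1 lower and 1 higher by DESeq2, and likewise at an unadjusted p below 0.05), and their sum was 96800 to 139551 CPM in WT livers and 105680 to 169205 CPM in livers labelled B4-HKO. *Alb* made up most of that sum, with 57197 to 90888 CPM in WT livers and 70086 to 112935 CPM in the others. The log2 fold changes of the 10 ran from −0.85 for *Cps1* to 0.70 for *Apoa1*, and 4 were negative. None of the 8 stellate cell and fibroblast markers or the 5 cholangiocyte markers was called by edgeR or DESeq2 or had an unadjusted p below 0.05. Of 7 lymphocyte markers none was called by edgeR, 1 was higher by DESeq2 and 2 (28.6%) were higher at an unadjusted p below 0.05. Of 4 tested neutrophil markers 1 (25.0%) was higher at an unadjusted p below 0.05 and none was called by either tool. Over all tested genes, 16.8% were higher at that p. Of 7 endothelial markers 1, *Kdr*, was called lower (14.3%, against 7.83% of all tested genes). The part of the macrophage markers' change in the lower lysosomal transcripts was not tested.

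**Figure D4:**
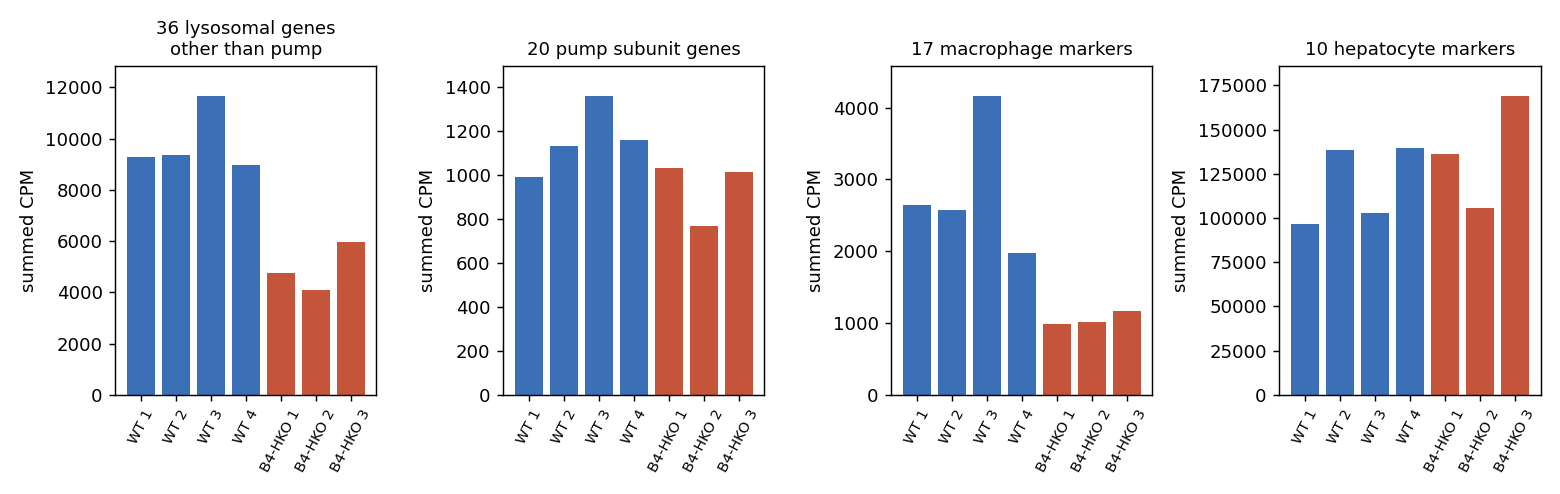
Summed CPM per liver (bars from 0, one per mouse) of the 36 named lysosomal genes, the 20 pump subunits, 17 macrophage markers and 10 hepatocyte markers in WT (blue) and B4-HKO (red) livers. Lysosomal and macrophage sums are lower in all 3 livers of the B4-HKO group, pump and hepatocyte sums overlap, and WT replicate 3 is the tallest bar of the first 3 panels.

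Other genes of the pathway were taken from a list of 99, of which 96 were tested: 18 were called lower (18.8%, against 7.83% of all tested genes) and 1 higher (against 8.0%), with a median log2 fold change of −0.28. Of 31 further hydrolases, 7 were called lower (22.6%, against 7.83% of all tested genes). They included *Ctss*, a cysteine protease abundant in antigen-presenting cells, with 454, 467, 715 and 366 CPM in WT livers against 194, 129 and 242 CPM (log2 fold change −1.41, SE 0.29, adjusted p = 0.0106). Also called were *Ctsk* (−0.99, adjusted p = 0.0114), the asparaginyl endopeptidase *Lgmn* (−0.92, adjusted p = 0.0168), *Smpdl3a* (−1.21, adjusted p = 0.0181), *Ctso* (−0.86, adjusted p = 0.0240) and *Pla2g15*, a lysosomal phospholipase (−0.77, adjusted p = 0.0325). These were lower in every liver labelled B4-HKO than in any WT liver. With 1 mouse left out, *Pla2g15* was lost in 5 of 7 fits and *Ctso* in 4, and the other 4 named here in none. Of 25 further membrane proteins and transporters, 7 were called lower (28.0%, against 7.83% of all tested genes). Among them were *Laptm4b* (−1.22, adjusted p = 0.00884), *Cd68*, which is also one of the macrophage markers (−1.15, adjusted p = 0.0103), the nucleoside transporter *Slc29a3* (−1.19, adjusted p = 0.0249), *Laptm5* (−0.90, adjusted p = 0.0261), *Ostm1* (−0.88, adjusted p = 0.0294) and *Tmem192* (−0.95, adjusted p = 0.0360). With 1 mouse left out, *Ostm1* and *Tmem192* were lost in 5 of 7 fits each, *Slc29a3* in 4 and *Laptm5* in 2, and *Laptm4b* and *Cd68* in none.

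Of the 11 genes that accompany or assemble the pump, 1 was called (9.09%, near the share of all tested genes), the pump-associated protein *Wdr7* (−1.19, adjusted p = 0.00939). Of 10 genes that tag and sort the hydrolases, 2 were called lower: *Igf2r*, the large mannose 6-phosphate receptor, with 61.0, 59.8, 63.3 and 53.1 CPM in WT livers against 37.6, 33.0 and 36.5 CPM (log2 fold change −0.73, SE 0.17, adjusted p = 0.0164), and *Sumf1*, which activates sulfatases such as *Arsb* and *Galns* (−0.67, adjusted p = 0.0495). With 1 mouse left out, the call of *Sumf1* was lost in 6 of 7 fits and that of *Igf2r* in 1. The 19 tested genes of the TFEB family and of mTORC1 signalling at the lysosome had a median log2 fold change of 0.03, and the share called lower, 1 gene or 5.26%, was near that of all tested genes. The Ragulator subunit *Lamtor1* was lower (−0.84, adjusted p = 0.0225), a call lost in 3 of 7 fits with 1 mouse left out. *Flcn*, which acts on the Rag GTPases that control TFEB, was the 1 gene of the list called higher, with 49.0, 34.0, 32.9 and 42.5 CPM in WT livers against 71.4, 113 and 74.2 CPM (log2 fold change 1.12, SE 0.22, adjusted p = 0.00948).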

How the data were processed

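Livers of 4 mice labelled WT and 3 labelled B4galt1-HKO were compared. The genes and lists were chosen with earlier results of these data known. The authors deposited whole-number read counts per gene and mouse, not normalized, and FPKM values for the same genes, which equalled the count over a fixed gene length and the library total (13374 genes checked, 0 deviating by over 1%). The submitters' processing notes name fastp, HISAT2, HTSeq, DESeq2, R 3.2.0 and the build GRCm39; the strand setting of the counting is not given in the sources used here. As far as the annotation goes (GENCODE M21), exons of 18 of the 56 genes overlap another gene of the table, among called genes *Ctsb*, *Hexa*, *Lamp1*, *Ppt1* and *Sgsh*.

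Counts were filtered by filterByExpr (minimum 10, total 15), normalized by TMM and fitted with edgeR 4.0.16 in R 4.3.3 by the quasi-likelihood F-test with group as the sole term and Benjamini-Hochberg adjustment over 15179 genes. Thresholds (adjusted p 0.05, log2 fold change 0.58) follow the study. Standard errors were derived from the F statistic. All adjusted p-values for single genes come from this test. Isoform shares used FPKM and a two-sided exact permutation test. No 2 libraries agreed within sampling noise (chi-square per gene of 60.3 or more over 21 pairs). The fits were first tested on simulated data. Full statistics are given for every called gene and for the 2 genes with the highest mean FPKM of each role; of the pathway list, at most 6 called genes per role are named, most by fold change and adjusted p alone. Alternative settings comprised upper-quartile and RLE scaling, DESeq2 1.42.0, other filters, limma 3.58.1 on log2 FPKM, the replicate block, no mitochondrially encoded genes, no fold change threshold, and each mouse left out. Counting N-glycosylation sites in proteins was planned and not run, since no protein sequences were used here. Sequences are from RefSeq on GRCm38.p6, another build than that of the counts, and carry the only coordinates printed. All sample columns were used.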

Additional observations from a re-analysis of the deposited data

Results flagged for a closer look

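Of the 53 tested genes, 5 had a WT liver that stood far from the other WT livers by Dixon's criterion for groups of 4, which chance alone flags in about 1 of 20 groups (2.65 of 53). *Hexa* had 139 CPM in WT replicate 3, where the next highest WT liver had 105 CPM, and *Npc2* had 220 CPM in the same liver, next to 137 CPM. Both genes were also called lower in livers labelled B4-HKO, and WT replicate 3 had the highest summed level of macrophage markers (4166 CPM). It also had the highest WT value of each of the 7 endothelial markers. *Ctsa* had 263 CPM in WT replicate 1, next to 238 CPM. *Gm2a* had its lowest WT value, 102 CPM, in WT replicate 1, next to 115 CPM. *Tpp1* had its lowest WT value, 89.2 CPM, in WT replicate 4, next to 100 CPM. The last 3 genes were not called in the comparison of groups.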

How the results depend on the processing

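Of the 21 genes called lower, 11 (*Ctsd*, *Ctsb*, *Ctsh*, *Arsb*, *Galns*, *Psap*, *Lipa*, *Npc2*, *Lamp1*, *Scarb2* and *Atp6v0c*) were called in every alternative fit run, 20 were called by DESeq2, which also called 8 others, and 16 with the replicate block. With that block 30.2% of the 53 tested members were called lower, against 4.05% of all tested genes. Members called lower numbered 28 with DESeq2 (6.82% of all genes), 32 and 33 with limma on log2(FPKM + 1) and log2(FPKM + 0.1), where the share of all genes called lower rose from 7.83% to 15.9% and 17.8%, and 11 to 21 with 1 mouse left out, where it was 3.16% to 7.51%. Pump subunits called lower numbered 5 with DESeq2, 4 each without a filter, with at least 10 counts in every mouse, with limma on unfiltered FPKM and without mitochondrially encoded genes, 7 and 8 with limma on filtered FPKM, 1 with the replicate block and 1 to 4 with 1 mouse left out. Without a fold change threshold 1 member, the pump subunit *Atp6v0b*, was higher. Pathway genes called lower numbered 9 with the replicate block, where the share of all tested genes called lower fell from 7.83% to 4.05%. With 1 mouse left out they numbered 9 to 17, where that share was 3.16% to 7.51%. Those called higher numbered 3 with DESeq2, 2 each with upper-quartile scaling, no filter or at least 10 counts in every mouse, 0 with limma on unfiltered FPKM, and 1 to 5 with 1 mouse left out. *B4galt1* passed the test at −0.67 and −0.73 on the log2 scale with limma on both filtered FPKM scales, and ranged from −0.96 to −0.30 with 1 mouse left out.

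The replicate numbers gave no sign of pairing the mice: deviations from the group means correlated at −0.34, −0.03 and 0.08 for replicates 1 to 3. So few mice cannot exclude a pairing. FPKM is not TMM-scaled, and there the median of all genes was −0.14 (pseudocount 1) and −0.18 (0.1), members' medians were −0.71 and −0.75, and 24.5% and 23.6% of all calls were higher, against 50.5% with edgeR. Genes near 0 changed sign. On the 3 FPKM fits (pseudocount 1, 0.1, and 1 unfiltered) the log2 fold change was −0.024, −0.033 and −0.024 for *Idua*, −0.050, −0.064 and −0.050 for *Cln3*, −0.085, −0.095 and −0.085 for *Atp6v0a2* and −0.046, −0.049 and −0.046 for *Atp6v1h*, and with the replicate block it was −0.050 for *Atp6v0a2*. With 1 mouse left out it ranged from −0.22 to 0.014 for *Ctsz*, −0.089 to 0.24 for *Idua*, −0.12 to 0.26 for *Cln3*, −0.088 to 0.14 for *Atp6v0a2* and −0.17 to 0.31 for *Atp6v1h*. Differences in isoform share ranged with 1 mouse left out from 0.613 to 4.40 (V0 d), −1.53 to 0.496 (V0 e), 0 to 0.0249 (V1 B), −0.0580 to 0.0274 (V1 C) and −1.17 to 0.385 (V1 G) percentage points. The cause of these changes was not tested. Counts put every called gene well above the floor of 3 counts, and 3 to 4 mice a group limit the precision.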
